A study of Homo sapiens with 40 samples.

Results

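The replication-dependent histone genes are the clustered gene copies that supply most of the core histones H2A, H2B, H3 and H4 and the linker histone H1 during DNA synthesis. Their symbols (H1-1 to H1-6, H2AC, H2BC, H3C and H4C with a number) occurred 66 times among the 28278 gene symbols of the deposited count table. The 21 genes with a mean of at least 10 counts over 40 libraries are described here. They comprised 1 of 6 H1 genes (H1-2), 6 of 16 H2A genes, 8 of 17 H2B genes, 3 of 13 H3 genes and 3 of 14 H4 genes. Of the other 45 genes, 8 were listed at 0 in all libraries. Among these, H3C14, H3C15, H4C14 and H4C15 share 100% of their coding sequence, in windows of 100 bases, with another copy. Their 0 can thus depend on how shared reads were treated. The member with the fewest counts was H4C5, with a mean of 10.6 counts, and the gene just outside was H2BC8, with 8.58. All 21 members passed the filter on low counts, which left 16739 genes tested.

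The libraries came from HEK293T cells, a human embryonic kidney line that carries the SV40 large T antigen. The 5 lines were wild-type cells with vector (WT vector), SLC25A12 knockout cells with vector (KO vector), and knockout cells labelled as carrying SLC25A12-WT, SLC25A12-F137S, or SLC25A12-F137S together with dMTS-DELE1. SLC25A12 encodes a mitochondrial carrier of aspartate and glutamate, and DELE1 signals mitochondrial damage to the integrated stress response. Each line received vehicle (called normal in the labels) or antimycin A (40 nM, 6 hours), which blocks complex III of the respiratory chain. Each of the 10 groups holds 4 libraries. The last 4 lines all carry the knockout in their labels. The labels name the knockout by its guide (sgSLC25A12), and the sources used here do not say whether a line is a clone or a pool, or which promoter drives the introduced genes. The libraries are called biological replicates without word of separate cultures, so p-values measure the spread between these libraries.

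The totals of single libraries were 30730335 to 31965438 counts. The libraries labelled KO plus SLC25A12-WT stood apart from their label. Their SLC25A12 level in vehicle was 38.9 ± 0.330 CPM (SD, n = 4), against 38.7 ± 1.82 in WT-vector and 3.08 ± 0.231 in KO-vector cells, and 0 of 16739 genes differed from WT-vector cells in vehicle by edgeR's quasi-likelihood test. They are called by their label throughout, and what is read from them rests on that label. All 10 of the markers chosen for HEK293 cells were detected (VIM at 349 to 491 CPM), with LHX1 lowest at 0.129 to 0.975 CPM. Of 8 markers of mature kidney, LRP2 was at 3.02 to 11.5 CPM, UMOD was at 0 in every library, and the other 6 did not pass 0.572 CPM. Of 6 markers of blood, vessel and connective tissue cells, COL1A1 was at 14.8 to 20.9 CPM and COL3A1 at 0.254 to 2.62, and the other 4 did not pass 0.320 CPM.

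As background, most histone mRNAs of this kind carry no poly(A) tail. Their 3′ ends are made by a cut behind a short stem-loop, which is bound by SLBP and recognised together with the U7 particle, whose proteins include LSM10 and LSM11. The messages build up in S phase, when NPAT drives their transcription under cyclin E and CDK2, and are degraded when DNA synthesis ends. A part of these genes can also read past the stem-loop to a poly(A) signal and give a tailed mRNA, which has been described in cells that leave the cycle. The libraries were enriched on oligo(dT) beads and then primed with random hexamers. The counts therefore report tailed histone RNA and any tailless RNA carried through the beads, not the total histone message of the cell.

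The stem-loop is shown because RNAs cut behind it lack the tail that oligo(dT) beads bind, while those reading past it can carry one. It was searched in the GENCODE release 29 transcript models (GRCh38) behind the coding part, as a stem side GGNNCT, the 4 loop bases NTNN and the facing stem side AGNNCC, with at least 5 of the 6 stem bases paired. Among 20371 coding genes, 122 (0.599%) held it, and among the 21 members 12 did. The capitals mark the loop and its stem, with 5 flanking bases on each side, in the strand of the message:
H2BC21: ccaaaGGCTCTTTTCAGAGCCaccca
H2AC6: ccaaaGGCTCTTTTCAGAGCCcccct
H2BC5: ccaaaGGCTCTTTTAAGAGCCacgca
H2AC11: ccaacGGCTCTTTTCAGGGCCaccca
H4C8: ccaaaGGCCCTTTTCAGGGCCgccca
H4C9: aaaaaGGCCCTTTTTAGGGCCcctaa
The form in H2BC21 and H2AC6 was the most frequent, in 6 members. H4C8 and H4C5 shared another form, as did H2BC5 and H2BC4, and H2AC11 had 1 of the 6 stem positions without a Watson-Crick pair.

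A poly(A) signal (AATAAA or ATTAAA within the last 50 bases of a model) was found in 12 members, and 8 members had it in a model that also held the stem-loop. The longest such models ran 1761 bases past the loop in H2AC11, 1729 in H2BC21, 1655 in H4C8, 1479 in H2BC18, 1128 in H2AC6, 1022 in H4C5 and 769 in H3C10. For these genes the annotation thus holds a tailed, read-through message. In contrast, 7 members, H2BC12 and H1-2 among them, have models of the coding part alone, in which neither element could be seen. Of the genes under the count minimum, 44 could be matched, and 9 of these had a poly(A) signal. In 26 of the 44 the models hold the coding part alone, so no signal could be seen there either. The sources used here do not give the gene models that were counted on, so counts are compared between libraries and not between genes.

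Of the members, 18 lie in the clusters of chromosome 6 and 3 (H2BC21, H2BC18 and H2AC20) in those of chromosome 1. In GRCh38.p14, H1-2 lies at chr6:26055740-26056470 on the minus strand, H2AC6 at chr6:26124172-26124690 on the plus strand and H2BC21 at chr1:149884459-149886682 on the minus strand.

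H2BC12 supplied most of the member counts, between 61.5% and 68.6% of their sum on average over each group. Its mean was 2535 counts per library, against 440.1 for H1-2, 321.3 for H2BC21 and 138.0 for H2BC5. The other 17 members had means from 92.4 (H2AC6) down to 10.6 counts. The variance between libraries of a group, over all pairs, was 1.72 to 1.98 times the Poisson value, so the low members are measured with a wide error. H2BC12 spans chr6:27138293-27146858 (GRCh38.p14, minus strand), a stretch that holds H4C9 on the other strand, and the sources used here do not give the strandedness of the counting. H2BC5 and H2BC18 likewise overlap other genes. H2AC13 shares 79.3% of its 100-base coding windows with H2AC14, and H2BC21 shares 19.5% with H2BC18, so their counts can depend on how shared reads were treated.

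The 21 members together stood about 2-fold higher in KO-vector than in WT-vector cells. Their summed level in vehicle was 83.9 ± 2.51 CPM (SD, n = 4) in WT-vector and 165 ± 5.31 in KO-vector cells, a ratio of 1.97. Without H2BC12 the sums were 27.5 ± 0.849 and 60.2 ± 0.726, a ratio of 2.19. The sum was 85.1 ± 2.24 in the labelled KO plus SLC25A12-WT libraries, 163 ± 3.37 in F137S cells and 136.99 ± 4.505 in cells with F137S and dMTS-DELE1 (dMTS-DELE1 cells). Under antimycin the order of the 5 lines was similar, with 86.6 ± 5.50, 154 ± 2.09, 83.8 ± 3.43, 150 ± 8.01 and 136 ± 4.87 CPM in the same order. In both media, the libraries of WT-vector cells and those labelled KO plus SLC25A12-WT overlapped each other, and lay below every library of the other 3 lines. KO-vector and F137S libraries also overlapped each other.

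**Figure D1:**
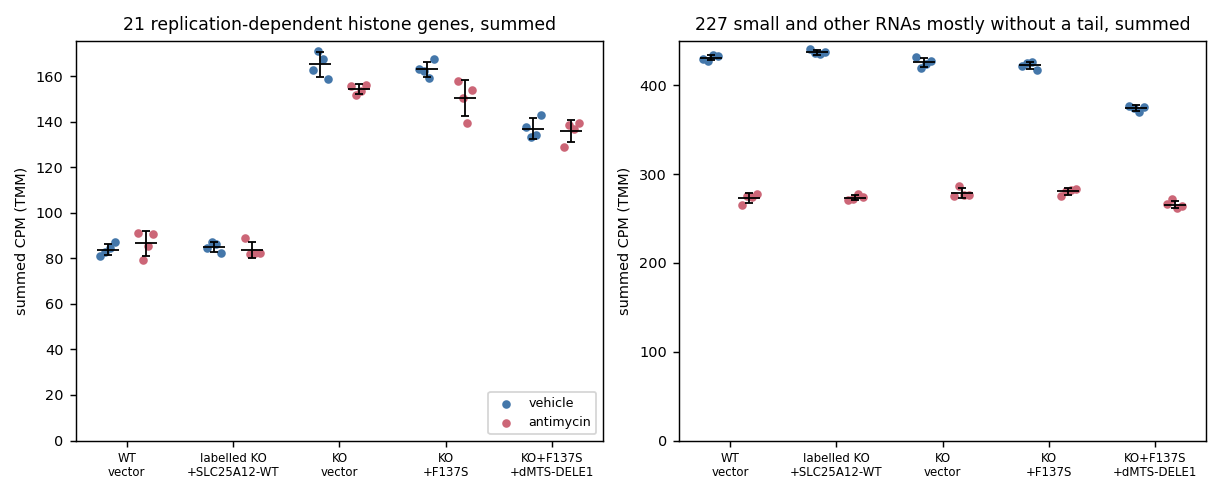
Summed level (CPM, linear axis from 0) of the 21 histone genes (left) and of 227 small and other RNAs that mostly lack a tail (right), per library, by line and medium; points are libraries, bars the mean and SD (n = 4). The histone sum separates KO vector (165 in vehicle) from WT vector (83.9), whereas the right panel separates vehicle (431 in WT vector) from antimycin (273). In KO vector (154) and F137S (150, against 163 in vehicle) the histone sum was also lower under antimycin.

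RNAs that mostly lack a tail were summed beside the members. The sum of 227 of them (small nucleolar, Cajal body and spliceosomal RNAs and a few others) was 431 ± 2.98 CPM in WT-vector and 426 ± 5.30 in KO-vector cells in vehicle, a ratio of 0.987. The ratio of the histone sum in the same libraries was 1.97. How much of either sum is carry-over of tailless RNA was not tested. Antimycin moved the tailless sum far more than the histone sum: the ratio of antimycin to vehicle was 0.634 in WT-vector cells, while that of the histone sum was 1.03. In the other lines the ratio for the tailless RNAs lay between 0.626 and 0.710. That of the histone sum was 0.934 in KO-vector, 0.922 in F137S and 0.992 in dMTS-DELE1 cells, and 0.985 in the labelled libraries. The histone sums of the 2 media did not overlap in KO-vector cells (159 to 171 CPM in vehicle, 152 to 156 under antimycin). Nor did they in F137S cells (159 to 167 and 139 to 158). The tailless sum of dMTS-DELE1 cells in vehicle was 374 ± 3.21 CPM, 0.886 of that of F137S cells, beside a ratio of 0.840 for the histone sum.

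By gene, 14 of the 21 members rose in KO-vector against WT-vector cells in vehicle and 0 fell, by edgeR's quasi-likelihood test with Benjamini-Hochberg adjustment over all tested genes (adjusted p below 0.05). Over all genes, 48.3% passed in either direction, 22.7% upward and 25.6% downward. The median log2 fold change was 0.95 for the members and -0.01 for all genes. In 12 of the 21 members, all of them among the 14 called, every KO-vector library lay above every WT-vector library. Of all 16739 tested genes, called or not, 20% did so. Fold changes below are log2 values ± SE from 1 fit of the 40 libraries (n = 4 in each group).

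H1-2 encodes a linker histone, which binds the DNA where it enters and leaves the nucleosome. Its level was 9.0, 8.81, 9.35 and 8.86 CPM in the 4 WT-vector libraries and 17.5, 16.8, 16.8 and 15.4 in the KO-vector libraries. All KO-vector libraries lay above all WT-vector libraries (0.88 ± 0.08, adjusted p = 4.7e-17). In bulk RNA, more of a message per cell and more cells that hold it, such as cells in S phase, cannot be told apart.

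Of the 8 H2B genes, 7 rose. H2BC12 stood at 53.8, 56.2, 56.0 and 59.6 CPM in WT-vector and at 103, 111, 107 and 99.4 in KO-vector libraries. The groups were apart by a wide gap relative to their spread (0.90 ± 0.04, adjusted p = 6.8e-29). H2BC21, at the chromosome 1 cluster, stood at 6.15, 4.32, 5.63 and 4.74 CPM in WT-vector and at 14.9, 14.7, 16.3 and 15.4 in KO-vector libraries (1.56 ± 0.09, adjusted p = 9.4e-26). H2BC11 (1.55 ± 0.17), H2BC5 (1.49 ± 0.15) and H2BC18 (1.39 ± 0.35) rose by like amounts. The fold changes of H2BC15 and H2BC4 were 1.10 ± 0.26 and 0.95 ± 0.29. H2BC17 did not pass the test (-0.01 ± 0.28, adjusted p = 0.97).

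H2A pairs with H2B in the dimers that flank the tetramer of H3 and H4 in the nucleosome core, and 4 of the 6 H2A genes rose. H2AC11 had the largest fold change of all members, with 0.463, 0.332, 0.30 and 0.498 CPM in WT-vector and 1.49, 2.11, 1.26 and 2.08 in KO-vector libraries (2.11 ± 0.30, adjusted p = 4.7e-09). Its libraries held 9 to 15 counts in WT-vector and 40 to 67 in KO-vector cells, without overlap. H2AC6 stood at 1.65, 1.83, 1.86 and 2.06 CPM against 5.34, 4.75, 5.07 and 4.5, again without overlap (1.41 ± 0.16, adjusted p = 1.2e-11). H2AC13 (0.95 ± 0.31) and H2AC17 (0.83 ± 0.33, adjusted p = 0.030) rose less. The call of H2AC17 ended when WT-vector replicate 1 or 2 or KO-vector replicate 1, 3 or 4 was left out (0.70 to 0.82, adjusted p from 0.052 to 0.10). H2AC15 (0.43 ± 0.29) and H2AC20 (-0.20 ± 0.30) did not pass.

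H3 and H4 form the tetramer at the centre of the nucleosome, and their genes held few counts. H3C6 rose (1.01 ± 0.27, adjusted p = 0.0011), and H3C10 (0.30 ± 0.20, adjusted p = 0.22) and H3C2 (0.04 ± 0.42) did not pass. H4C9 rose (1.46 ± 0.41, adjusted p = 0.0019), from 4 to 11 counts per WT-vector library to 8 to 28 per KO-vector library, with overlap. H4C8 (0.70 ± 0.39) and H4C5 (0.61 ± 0.45) did not pass, and at 5 to 22 counts of H4C8 per library a difference of the size of the H2B genes' is close to what the error allows to be seen.

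**Figure D2:**
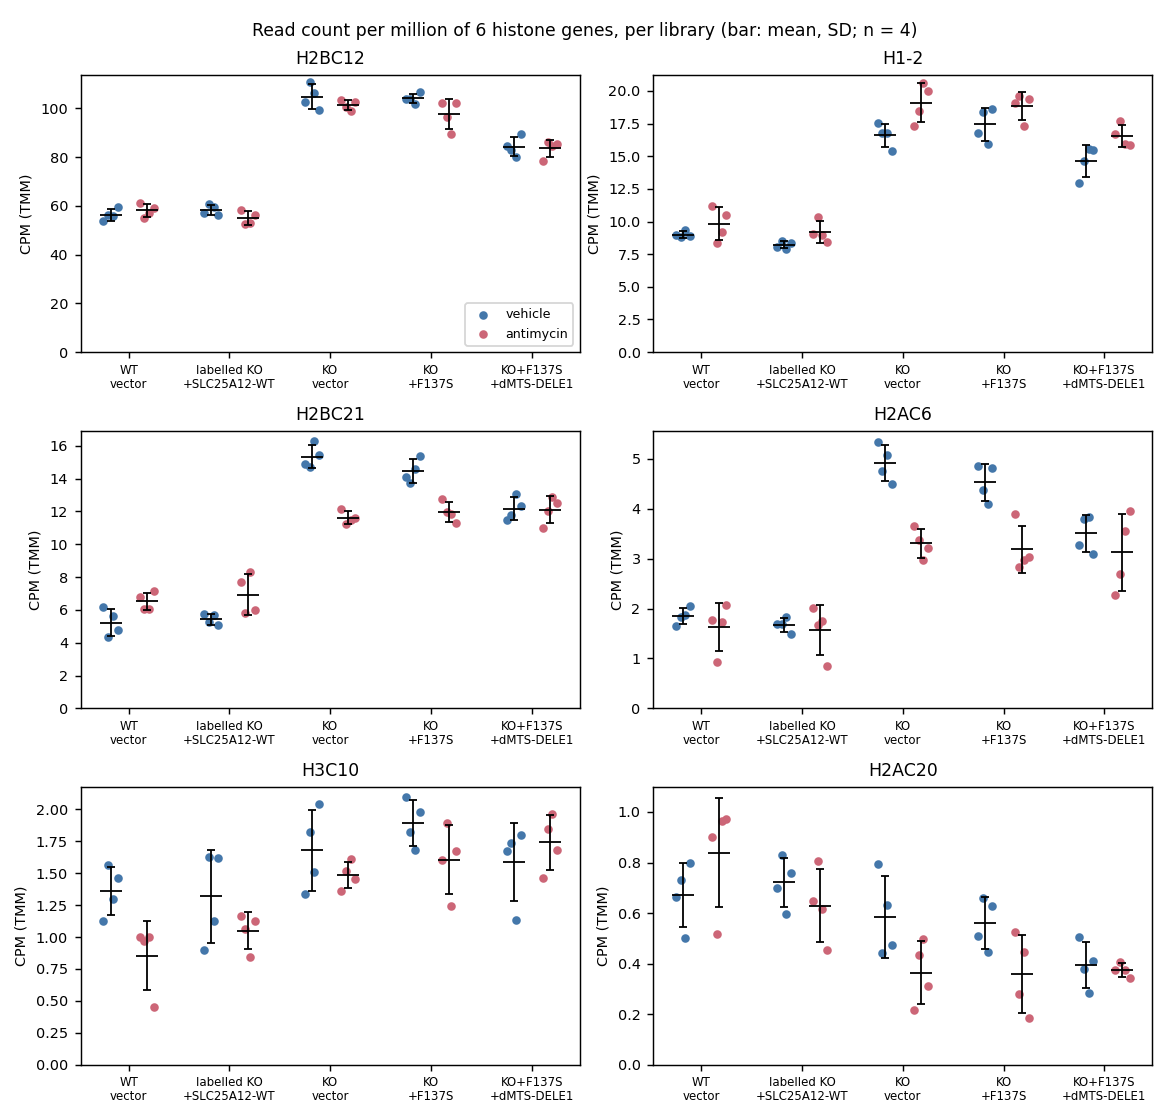
Level (CPM, linear axes from 0) per library of 6 histone genes, by line (5 positions) and medium (colour); points are libraries, bars the mean and SD (n = 4). H2BC12, H1-2, H2BC21 and H2AC6 are higher in KO vector (104.9, 16.6, 15.3 and 4.91 in vehicle) than in WT vector (56.4, 9.005, 5.21 and 1.85), while H2AC20 is not.

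Under antimycin, 11 members were higher in KO-vector than in WT-vector cells and 1 was lower, where 48% of all genes passed (23.5% higher, 24.5% lower). The median log2 fold change was 0.80. H2BC12 (0.80 ± 0.04), H1-2 (0.96 ± 0.07) and H2BC5 (1.26 ± 0.15) differed by about as much as in vehicle (0.90, 0.88 and 1.49). Other members had smaller values than in vehicle, among them H2BC21 (0.83, against 1.56), H2AC11 (1.19, against 2.11), H2BC11 (0.97, against 1.55) and H2AC6 (1.02, against 1.41), and of these changes only that of H2BC21 passed the test of the difference between responses. H3C10, which had not passed in vehicle, did so here (0.79 ± 0.22, adjusted p = 0.0013), with 0.998, 0.970, 0.997 and 0.454 CPM in WT-vector and 1.36, 1.51, 1.61 and 1.46 in KO-vector libraries. Of the 14 members called in vehicle, 4 did not pass under antimycin: H2BC18 (0.82 ± 0.37, adjusted p = 0.057), H4C9 (0.80 ± 0.41, adjusted p = 0.10), H2AC13 (0.21 ± 0.31) and H2AC17 (0.18 ± 0.33). H2AC20 was the member that fell (-1.20 ± 0.31, adjusted p = 0.00083), with 0.901, 0.517, 0.965 and 0.972 CPM in WT-vector and 0.217, 0.433, 0.495 and 0.310 in KO-vector libraries. These are 16 to 30 counts against 7 to 16, and the groups do not overlap on the CPM scale.

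In the labelled KO plus SLC25A12-WT libraries, 15 members were lower than in KO-vector cells in vehicle and 0 were higher, where 47.8% of all genes passed (22.6% lower, 25.3% higher). The comparison shares its KO-vector libraries with that of KO-vector and WT-vector cells, so the values are given side by side and not as a second result. The fold change was -0.85 ± 0.04 for H2BC12, -1.02 ± 0.08 for H1-2, -1.497 ± 0.09 for H2BC21 and -1.55 ± 0.17 for H2AC6. H4C8 also fell (-1.22 ± 0.42, adjusted p = 0.012), a call that ended without KO-vector replicate 2 or the labelled replicate 4 (-1.01 and -0.99). The calls of H2AC13 (-0.82 ± 0.30) and H2AC17 (-0.83 ± 0.33) ended without labelled replicate 4 or KO-vector replicate 1, and without labelled replicate 2 or 3 or KO-vector replicate 1, 3 or 4. The values were then -0.65 to -0.62 for H2AC13 and -0.82 to -0.69 for H2AC17. Under antimycin 11 members were lower, where 48.2% of all genes passed (23.5% lower, 24.7% higher), and 1 was higher, H2AC20 (0.78 ± 0.32, adjusted p = 0.038). That call ended without KO-vector replicate 1 or 4, without labelled replicate 1, 2 or 3, without the filter on low counts, and in a fit of the compared groups alone (0.62 to 0.81 over the 5 libraries). Among the 11, the call of H3C10 ended without KO-vector replicate 2, 3 or 4, without labelled replicate 2, 3 or 4 (-0.52 to -0.40) and without the filter. That of H2AC11 ended without KO-vector replicate 1, 2 or 4, without labelled replicate 1, 3 or 4 (-0.70 to -0.43), without the filter, with DESeq2's Wald test, and with the replicate number as a block (-0.63, adjusted p = 0.055). That of H2BC4 ended without KO-vector replicate 4 (-0.62). Against WT-vector cells the same libraries had 0 of 21 members called in vehicle (0% of all genes) and 0 under antimycin (0.00597%), and 0 members had an unadjusted p below 0.05 in either medium.

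F137S cells did not differ detectably from KO-vector cells in these genes. In vehicle 0 of 21 members passed, where 0.0836% of all genes did, and under antimycin again 0, with 0.114% of all genes. H2BC12 stood at 104 ± 1.88 CPM in F137S cells in vehicle against 104.9 ± 4.99 in KO-vector cells (-0.01 ± 0.04). H1-2 stood at 17.4 ± 1.30 against 16.6 ± 0.882 CPM (0.07 ± 0.07). For these members, the standard errors leave room only for differences far smaller than those between KO-vector and WT-vector cells. For H4C9 they do not (-0.55 ± 0.36). H2AC17 had the largest difference of the members in vehicle (-0.94), which did not pass either. It stood at 0.482 ± 0.217 CPM in F137S, 0.931 ± 0.223 in KO-vector and 0.523 ± 0.129 in WT-vector cells. In each medium 1 member had an unadjusted p below 0.05.

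dMTS-DELE1 cells had less of the most abundant member than F137S cells. Besides DELE1 (5344 against 45.9 CPM in vehicle), the 2 lines differed in SLC25A12. It stood at 3716 ± 25.7 CPM in dMTS-DELE1 and 1853 ± 18.3 in F137S cells in vehicle, and at 4272 and 1908 under antimycin. What goes with either gene cannot be told apart in this comparison. In vehicle 4 members fell and 0 rose, where 41.8% of all genes passed, so the share of members called (19%) was below the background. H2BC12 stood at 84.6, 83.1, 80.1 and 89.5 CPM in dMTS-DELE1 cells, below the 104, 104, 102 and 107 of F137S cells (-0.31 ± 0.04, adjusted p = 1.2e-09). H1-2 (-0.25 ± 0.07), H2BC21 (-0.25 ± 0.08) and H2AC6 (-0.37 ± 0.15) also fell. These last 3 calls rested on few libraries. That of H1-2 ended without dMTS-DELE1 replicate 1 (-0.18), that of H2BC21 without that library (-0.20) or F137S replicate 4 (-0.20), and that of H2AC6 without F137S replicate 1, 2 or 4 or dMTS-DELE1 replicate 1 or 4 (-0.37 to -0.32). Under antimycin H2BC12 fell by 0.22 ± 0.04 (adjusted p = 1.5e-06) and H1-2 by 0.19 ± 0.07, and 54.3% of all genes passed. The call of H1-2 ended without F137S replicate 2 or 4 or dMTS-DELE1 replicate 3 or 4 (-0.18 to -0.17).

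Most members shared a split of the 5 lines into a higher and a lower set, while the order within the sets varied. In vehicle the mean of KO-vector, F137S and dMTS-DELE1 cells lay above those of both WT-vector cells and the labelled libraries in 18 of 21 members (85.7%), where 29.8% of all tested genes had this order. Under antimycin 19 of 21 members had it (90.5%, against 28.6% of all genes). H2AC20 had the opposite order in both media. In 9 members in vehicle (42.9%, against 9.3% of all genes) and 6 under antimycin (28.6%, against 8.57%), H2BC12 and H1-2 in both, dMTS-DELE1 cells lay between the 2 levels. The labelled libraries hardly differed from WT-vector cells, nor F137S from KO-vector cells, so the split largely repeats the KO-vector against WT-vector comparison. These orders compare means and carry no test.

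**Figure D3:**
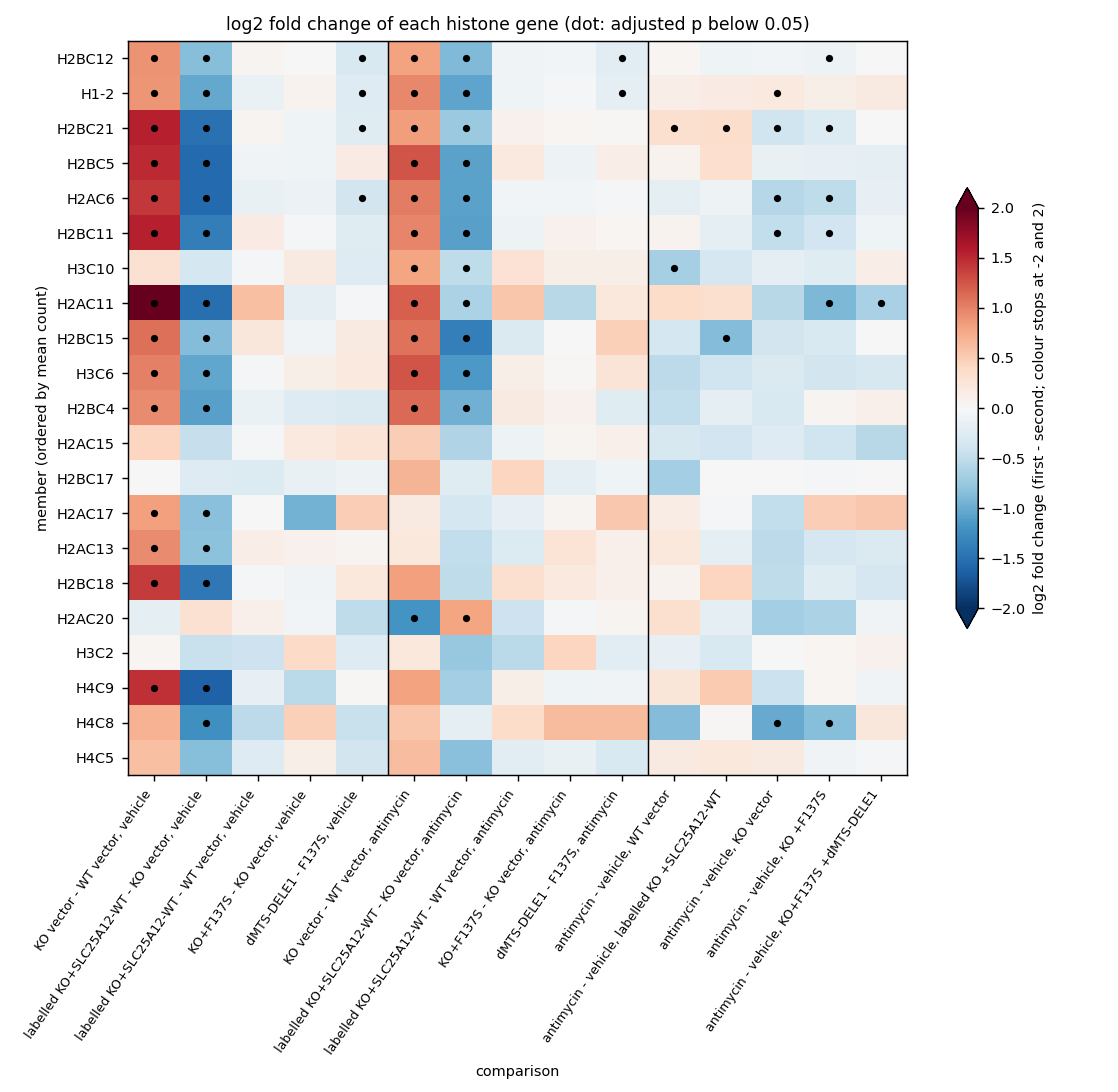
Log2 fold change (colour, blue lower and red higher, colours stop at -2 and 2) of the 21 histone genes (vertical axis, by mean count) in 15 comparisons (horizontal axis, named on the axis); dots mark an adjusted p below 0.05. KO vector against WT vector has 14 dots in vehicle and 12 under antimycin, and the antimycin responses at the right have 16 in all.

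For antimycin itself few members passed the test, and most members had few counts, so moderate changes can be missed. In WT-vector cells 1 member rose and 1 fell, where 51.9% of all genes passed, and the median of the members was 0.07. H2BC21 rose (0.32 ± 0.10, adjusted p = 0.0033), and H3C10 fell (-0.67 ± 0.22, adjusted p = 0.0076). The fall of H3C10 rests on the library WT-vector replicate 4, at 0.454 CPM: without it the value was -0.44 and did not pass (adjusted p = 0.093). H2BC12 (0.04 ± 0.04) and H1-2 (0.13 ± 0.08) did not pass. In the labelled KO plus SLC25A12-WT libraries, H2BC21 rose (0.35 ± 0.09), H2BC15 fell (-0.86 ± 0.31), and 52.3% of all genes passed. The call of H2BC15 ended without labelled vehicle replicate 3 or 4 or labelled antimycin replicate 1 or 3 (-0.74 to -0.64).

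In KO-vector cells 1 member rose and 4 fell, where 51% of all genes passed, and the median of the members was -0.36, against 0.02 over all genes. Called or not, 17 members had negative values and 4 positive ones. H2BC21 fell (-0.40 ± 0.08, adjusted p = 4.0e-05), as did H2AC6 (-0.57 ± 0.15) and H2BC11 (-0.50 ± 0.16). H4C8 fell from 11 to 22 counts per library to 3 to 12 (-1.01 ± 0.40, adjusted p = 0.029). H1-2 rose (0.20 ± 0.07, adjusted p = 0.015). Without vehicle replicate 4 or antimycin replicate 3, H1-2 no longer passed (0.17 in each case), nor did H2BC11 without antimycin replicate 1 (-0.37). The call of H4C8 ended without vehicle replicate 2 or 4 or antimycin replicate 1 or 4 (-0.96 to -0.74).

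In F137S cells 6 members fell and 0 rose, where 51.2% of all genes passed. The median of the members was -0.24, against 0.02 over all genes, with 16 values negative and 5 positive. H2AC11 (-0.90 ± 0.27), H2AC6 (-0.51 ± 0.15) and H2BC21 (-0.28 ± 0.08) kept their calls without any 1 library. H2BC12 (-0.09 ± 0.04), H2BC11 (-0.38 ± 0.16) and H4C8 (-0.85 ± 0.36) passed narrowly, with adjusted p of 0.034, 0.041 and 0.041. The calls of H2BC12 and H2BC11 each ended without any of 6 of the 8 libraries (all but antimycin replicates 1 and 4 for H2BC12, all but vehicle replicate 3 and antimycin replicate 2 for H2BC11), with values of -0.10 to -0.04 and -0.37 to -0.34. H4C8 lost its call without vehicle replicate 1 or 4 or antimycin replicate 1, 3 or 4 (-0.81 to -0.72). In dMTS-DELE1 cells only H2AC11 fell (-0.65 ± 0.26, adjusted p = 0.047), where 34.9% of all genes passed. It did not pass without vehicle replicate 1 or 3 or antimycin replicate 1, 2 or 3 (-0.70 to -0.46).

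H2BC21 was the 1 member whose difference in antimycin response between KO-vector and WT-vector cells passed after adjustment. The unadjusted p was below 0.05 for 4 members. The largest difference was -0.99, of H2AC20, a member with few counts, and it did not pass. H2BC21 stood at 4.32 to 6.15 CPM in WT-vector cells in vehicle and at 6.04 to 7.16 under antimycin. In KO-vector cells it stood at 14.7 to 16.3 CPM in vehicle and at 11.2 to 12.1 under antimycin, without overlap. The difference of the responses was -0.72 ± 0.13 (adjusted p = 7.8e-05 by edgeR's quasi-likelihood test, n = 4 per group), where 1.57% of all genes passed. It ran from -0.82 to -0.64 over 22 alternatives and passed in every one. As the 2 lines moved toward each other, the log2 difference between them was 1.56 in vehicle and 0.83 under antimycin. The responses of F137S and KO-vector cells differed in 0 of 21 members and in 0% of all genes, and those of dMTS-DELE1 and F137S cells in 0 of 21 members, where 11.9% of all genes passed. The unadjusted p was below 0.05 for 1 and 2 members, respectively. For H2BC21 these 2 differences were 0.13 ± 0.12 and 0.27 ± 0.12.

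**Figure D4:**
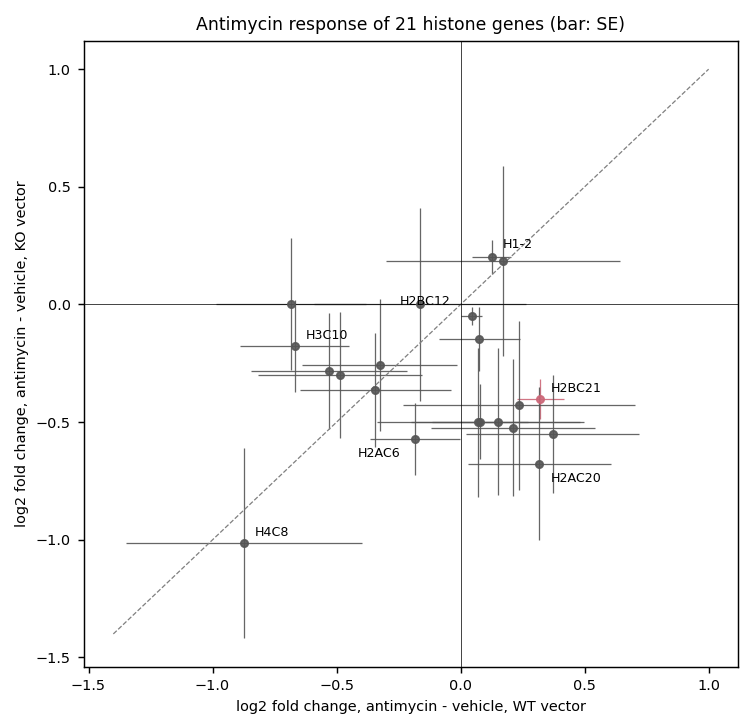
Antimycin response (log2 fold change, antimycin minus vehicle) of the 21 histone genes in WT-vector (horizontal) and KO-vector cells (vertical), each with its SE (n = 4 per group); the dashed line marks equal responses. H2BC21 (red) lies at 0.32 and -0.40, off the line by more than its error, and H1-2 and H2BC12 lie near it.

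H2BC21 and H2AC20 start back to back on chromosome 1, 236 bases apart, and 5 such pairs with both genes among the members were found (H2AC6 with H2BC4, H2BC11 with H2AC11, H2BC15 with H2AC15, and H2BC17 with H2AC17 are the others). In H2BC11 and H2AC11 both genes rose in KO-vector cells in vehicle (1.55 and 2.11), as did H2AC6 and H2BC4 (1.41 and 0.95). In the pairs of H2BC15 and H2BC17 1 gene of each passed, H2BC15 (1.10) and H2AC17 (0.83). H2BC21 and H2AC20 had 1.56 ± 0.09 against -0.20 ± 0.30 in vehicle and 0.83 ± 0.09 against -1.20 ± 0.31 under antimycin. In the GENCODE models used here H2BC21 has a read-through message of 1729 bases past its loop, and H2AC20 has the coding part alone. Their start regions are shown because they share 1 stretch of DNA read in opposite directions, as 150 bases before each start from RefSeq (GRCh38.p14), together with that of H2BC12. Capitals mark the octamer ATTTGCAT, CCAAT and TATAAA on either strand (ATGCAAAT, ATTGG and TTTATA in reverse):
H2BC21, chr1:149886683-149886832, minus strand: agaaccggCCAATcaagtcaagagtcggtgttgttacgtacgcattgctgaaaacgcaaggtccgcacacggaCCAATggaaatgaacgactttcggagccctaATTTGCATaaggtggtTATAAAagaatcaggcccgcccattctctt
H2AC20, chr1:149886768-149886917, plus strand: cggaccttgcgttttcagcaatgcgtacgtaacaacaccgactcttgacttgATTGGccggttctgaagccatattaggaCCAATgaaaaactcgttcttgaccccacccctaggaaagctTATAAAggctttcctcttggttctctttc
H2BC12, chr6:27146859-27147008, minus strand: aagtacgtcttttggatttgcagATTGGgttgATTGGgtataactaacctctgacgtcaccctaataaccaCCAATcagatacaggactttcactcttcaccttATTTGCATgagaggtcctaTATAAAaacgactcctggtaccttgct

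The octamer, a site known for the factor OCT1 in H2B promoters, was found in 10 of the 21 members within 250 bases before to 50 after the start, and in 1.8% of 27305 promoters of that length. Its first base lay 46 bases before the start in both H2BC12 and H2BC21. CCAAT was found in 19 of 21 members (35.7% of all promoters) and TATAAA in 14 of 21 (12%). AAACACA, known from H1 promoters, was found in 2 of 21 (5.76%). Of the 40 histone genes under the count minimum with a promoter entry, 16 held the octamer (40.0%, against 47.6% of the members), 33 CCAAT (82.5%, against 90.5%), 27 TATAAA (67.5%, against 66.7%) and 7 AAACACA (17.5%, against 9.52%), with no test of the differences. Windows of back-to-back genes overlap, so 1 match can count for both genes. Of the 10 members with the octamer 8 rose in KO-vector cells in vehicle, and of the 11 without it 6 did. Of the 12 members with a poly(A) signal in a model 9 rose, with a median of 1.246, and of the 9 others 5 rose, with a median of 0.83. Under antimycin the counts were 9 of 12, and 2 of 9 with 1 lower. Of the 9 members without a signal, 7 have models of the coding part alone, in which none could be seen. That split thus also sorts the members by how complete their models are. These splits carry no test.

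The other genes of the histone system are given by list, to be read against 48.3% of all genes called between KO-vector and WT-vector cells in vehicle (22.7% higher, 25.6% lower, median -0.01). The list of 14 tested replacement and variant histones, whose mRNAs mostly carry a tail, had 7 higher and 0 lower in KO-vector than in WT-vector cells in vehicle, with a median of 0.07. H2BU1, an H2B gene whose symbol is not of the kinds that define the members, had the largest change of the list (1.09 ± 0.18). Whether it belongs with the variants or with the replication-dependent genes was not examined. The 3′ ends of this list were not examined gene by gene, so which of its genes hold the stem-loop is not given. H2AX, the variant phosphorylated at DNA breaks, rose by 0.32 ± 0.05, H3-3B by 0.21 ± 0.02 and H2AZ1 by 0.05 ± 0.02. Antimycin lowered H2AX in WT-vector cells (-0.40 ± 0.05), while H2AZ1 did not pass (-0.01 ± 0.02). In dMTS-DELE1 against F137S cells in vehicle, 7 of the 14 fell and 1 rose, where 41.8% of all genes passed.

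Of 38 genes of histone 3′ end processing and transcription, 8 were higher and 13 lower in KO-vector cells in vehicle (median -0.02). SLBP, the protein bound to the stem-loop, rose slightly, from 169 to 184 CPM (0.12 ± 0.02, adjusted p = 9.1e-06), and NPAT rose from 69.1 to 81.8 CPM (0.24 ± 0.04). ZNF473, part of the U7 complex, fell (-0.23 ± 0.05). CASP8AP2, which acts with NPAT, did not pass (0.06 ± 0.03), nor did LSM10 (0.00 ± 0.05) and LSM11 (-0.03 ± 0.04). The cyclins moved apart, CCNE2 upward (0.57 ± 0.05) and CCNE1 downward (-0.35 ± 0.04), and CDK2 did not pass (-0.04 ± 0.02). UPF1, a helicase with a part in histone mRNA decay, fell most of the list (-0.36 ± 0.02), and PNRC2, which binds UPF1, rose (0.43 ± 0.02).

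Genes of S phase were called in both directions. Of 26, 8 were higher and 10 lower in KO-vector cells in vehicle, with a median of -0.04 and a range of -0.40 (UHRF1) to 0.18 (RPA2), and E2F1 did not pass (-0.05 ± 0.04). Under antimycin E2F1 rose in WT-vector (0.63 ± 0.04) and KO-vector cells (0.57 ± 0.04), where H2BC12 passed in neither line. In dMTS-DELE1 against F137S cells in vehicle, 18 of the 26 fell and 2 rose (median -0.10), where 41.8% of all genes passed (median -0.02), beside the fall of 4 histone genes, and the part of the S phase genes' change in it was not tested. Of 16 histone chaperones, 5 were higher and 4 lower in KO-vector cells, among them CHAF1A (-0.44 ± 0.03) and ASF1B (-0.35 ± 0.03), which deliver H3 and H4 to new DNA, and RBBP4 (0.31 ± 0.02). Of 19 tested genes lying between the members on chromosome 6, 7 were higher and 0 lower, with a median of 0.16, a list added after the data were seen.

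**Figure D5:**
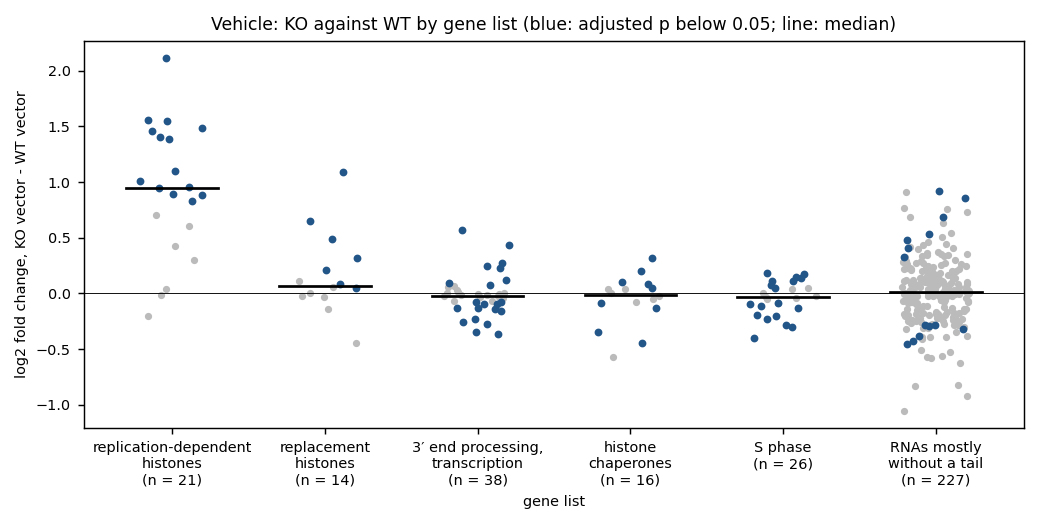
Log2 fold change of KO-vector against WT-vector cells in vehicle (vertical) for the genes of 6 lists (horizontal, with the number of genes); blue points have an adjusted p below 0.05, grey points do not, and lines are medians (n = 4 libraries per group). The replication-dependent histone genes have a median of 0.95, and the other 5 lists lie between -0.04 and 0.07.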

How the data were processed

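Poly(A)-enriched RNA of 40 libraries was sequenced as 150-base pairs. The authors deposited raw counts per gene symbol, made with HISAT2 2.1.0 and featureCounts 2.0.6 on hg38 per the submitters' processing notes. Neither settings nor annotation nor strandedness are stated there. Counts were filtered with filterByExpr (16739 genes left), scaled by TMM and fitted with edgeR 4.0.16 (R 4.3.3) by a robust quasi-likelihood model of all 40 libraries, with 1 coefficient per group. Comparisons were 18 contrasts of this fit, with Benjamini-Hochberg adjustment over all tested genes. CPM values use the TMM-scaled totals. Standard errors come from the fold change and its F statistic.

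The members, the lists and the comparisons were chosen with earlier results of these data known. Every member could be named. Beside them, a fixed set of companion genes and those with the largest change each way in a list were named. The procedure was tested on simulated data. Same-numbered libraries had residuals correlating at -0.00102 on average, and 9 of 40 libraries correlated best with their own number, so the fit has no replicate block. Alternatives were DESeq2 1.42.0 size factors and its Wald test, no filter, a replicate block, the compared groups alone and each library left out. A fit leaving out the labelled KO plus SLC25A12-WT libraries was added after seeing the data. Sequences were read from GENCODE release 29 transcripts and RefSeq promoters with Python. Some values that the naming rule covers are not reported here.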

Additional observations from a re-analysis of the deposited data

Results flagged for a closer look

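The antimycin response of H2BC21 differed between KO-vector and WT-vector cells (log2 -0.72 ± 0.13 for KO vector minus WT vector, adjusted p = 7.8e-05 by edgeR's quasi-likelihood test), with a rise of 0.32 in WT-vector and a fall of 0.40 in KO-vector cells.

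In 15 of 230 groups of 4 libraries (6.52%), 1 library lay far from the other 3 relative to the range, a share that chance gives in about 1 of 20 groups. The summed level of the 21 members was 88.9 CPM in replicate 1 of the antimycin libraries labelled KO plus SLC25A12-WT, and 81.7 to 82.3 in the others. H2BC11 stood at 2.06 CPM in labelled vehicle replicate 1 (others 1.16 to 1.23), at 2.75 in dMTS-DELE1 vehicle replicate 2 (3.09 to 3.11) and at 3.17 in F137S antimycin replicate 2 (2.59 to 2.65). H3C10 stood at 0.454 CPM, 14 counts, in WT-vector antimycin replicate 4 (others 0.970 to 0.998). H3C6 stood at 1.68 CPM in F137S vehicle replicate 3 (1.07 to 1.14).

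H2AC15 stood at 1.29 CPM in F137S vehicle replicate 4 (others 0.785 to 0.824) and at 1.45 in dMTS-DELE1 vehicle replicate 1 (0.975 to 1.04). H2BC17 stood at 0.708 CPM in WT-vector antimycin replicate 3 (0.389 to 0.420) and at 1.33 in KO-vector antimycin replicate 4 (0.557 to 0.620). H2AC20 stood at 0.517 CPM in WT-vector antimycin replicate 2 (0.901 to 0.972). H3C2 stood at 0.698 CPM in WT-vector vehicle replicate 2 (0.298 to 0.30) and at 0.630 in F137S vehicle replicate 4 (0.502 to 0.508). H4C8 stood at 0.622 CPM in F137S antimycin replicate 2 (0.278 to 0.319), and H4C5 at 0.517 in labelled antimycin replicate 1 (0.129 to 0.194).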

How the results depend on the processing

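Of 76 member calls over the 18 comparisons, 55 held under every alternative, 21 ended under at least 1, and 0 changed direction. Of the other member values, 17 passed under at least 1 alternative. The following counts of called members moved by over 1.5 times. In the antimycin response of dMTS-DELE1 cells, members higher went from 0 to 1 (H1-2) with DESeq2 size factors, with DESeq2's Wald test and without the labelled KO plus SLC25A12-WT libraries, and members lower from 1 to 0 without the filter and with DESeq2's Wald test. Members lower in the response of WT-vector cells went from 1 to 2 with the compared groups alone. For the labelled libraries against KO-vector cells under antimycin, members higher went from 1 to 0 without the filter and with the compared groups alone. The cause was not tested. Smaller shifts were in members lower in the labelled libraries against KO-vector cells under antimycin (11 to 9 without the filter, and to 10 with the block or DESeq2's Wald test), in the responses of KO-vector (4 to 5 with the compared groups alone and without the labelled libraries) and F137S cells (6 to 5 without the filter), in dMTS-DELE1 against F137S cells in vehicle (4 to 3 with DESeq2 size factors), and in members higher in KO-vector than in WT-vector cells under antimycin (11 to 12, H2BC18, without the labelled libraries). With the compared groups alone, the filter removed 21 member values, none of them called. The replicate block ended 1 call, that of H2AC11 in the labelled libraries against KO-vector cells under antimycin, and left every count within 1.5 times.

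With each library left out in turn, members higher in KO-vector than in WT-vector cells numbered 13 to 14 in vehicle and 11 to 13 under antimycin. Members lower in the labelled libraries than in KO-vector cells numbered 13 to 15 and 8 to 11, and members higher under antimycin 0 to 1. For dMTS-DELE1 against F137S cells, members lower numbered 1 to 4 in vehicle and 1 to 2 under antimycin, and members higher under antimycin 0 to 1. For the antimycin responses, members higher and lower numbered 1 to 2 and 0 to 2 in WT-vector cells, 0 to 1 and 2 to 5 in KO-vector cells, 1 to 2 and 0 to 1 in the labelled libraries, 0 and 3 to 5 in F137S cells, and 0 to 1 and 0 to 1 in dMTS-DELE1 cells. Members with few counts (H4C5 had 2 to 20 per library) limit what can be seen.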
